A study of Oryza sativa with 4 samples.

Results

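The genes described here encode developmental transcription factors of rice that carry the names HOX, MADS, OSH, ROC or YAB followed by a number. The gene table lists their locus numbers as symbols, so the names were found in its synonym field, where 81 genes carried one. Of these, 76 had at least 1 probe set of their own on the array, out of 17905 named genes: 31 MADS, 25 HOX, 8 ROC, 6 OSH and 6 YAB genes. HOX3, Roc9, OSH10 and YAB3 had no probe set in the annotation, and OSH15 was read only by a probe set that several genes share, so these 5 are not analysed here. Where a gene had several probe sets, the one with the highest mean level over all 4 arrays stands for it.

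Coleoptiles of rice (Oryza sativa cv Nipponbare), the sheath around the shoot of a germinating grass, were compared after 4 days of germination in the dark at 28 °C. The anoxic group had 2 arrays, from seeds in an anaerobic chamber (N2 and H2, 90 to 10). The aerobic group, the control, had 2 arrays from seeds in air, and its coleoptiles had the primary leaf taken out. Anoxic coleoptiles hold no such leaf per the labels, so the removal and the oxygen supply cannot be told apart. Separate seed batches are not stated for the replicates, so all p-values rest on the spread between single arrays, which may be technical.

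Homeodomain factors bind DNA through a helix-turn-helix fold. In the HOX and ROC genes it is joined to a leucine zipper (HD-Zip classes I to IV). In the OSH genes it belongs to the KNOX group, some of whose members keep shoot meristem cells undetermined. HD-Zip I and II factors are known from responses to drought, abscisic acid, light and auxin, HD-Zip III factors from leaf polarity and vascular tissue, and HD-Zip IV factors from the epidermis. MADS factors are best known for floral organ identity and flowering time, and YABBY factors for the growth of leaves and other lateral organs.

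The deposited values were intensities on a linear scale, and levels are given here as log2(intensity + 1). Probe sets for reporter sequences, which read genes of transgenic constructs, set the background: the highest group mean of any of the 64 was 4.05. By that line, 34 of the 76 genes (44.7%) were detectable in anoxic and 31 (40.8%) in aerobic coleoptiles, against 65.7% and 66.8% of all named genes. Both groups were above it for 29 genes, and 40 (52.6%) were above it in neither, against 28.6% of all named genes. Nearest to the line, hox32 read 4.18 in anoxic coleoptiles and HOX33 3.93, while HOX7 read 4.10 in aerobic coleoptiles and HOX20 3.99.

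The families differed in how many of their genes were detectable. Among the HOX genes 17 of 25 were above background in anoxic and 16 in aerobic coleoptiles. For the OSH genes these numbers were 5 and 3 of 6, for the YAB genes 5 and 4 of 6, and for the ROC genes 4 and 4 of 8. Only 3 and 4 of the 31 MADS genes were above it. All 5 genes of the SEP type (MADS1, MADS5, MADS34, MADS45 and MADS24), all 4 of the C and D classes (MADS3, MADS58, MADS13 and MADS21) and both Bsister genes (MADS29 and MADS30), which act in flowers, ovules and seeds, were at or below the line in both groups. Over the 40 genes below it in both groups, single arrays read 2.46 to 4.21, and a value there is not shown to be an absence of transcript.

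**Figure D1:**
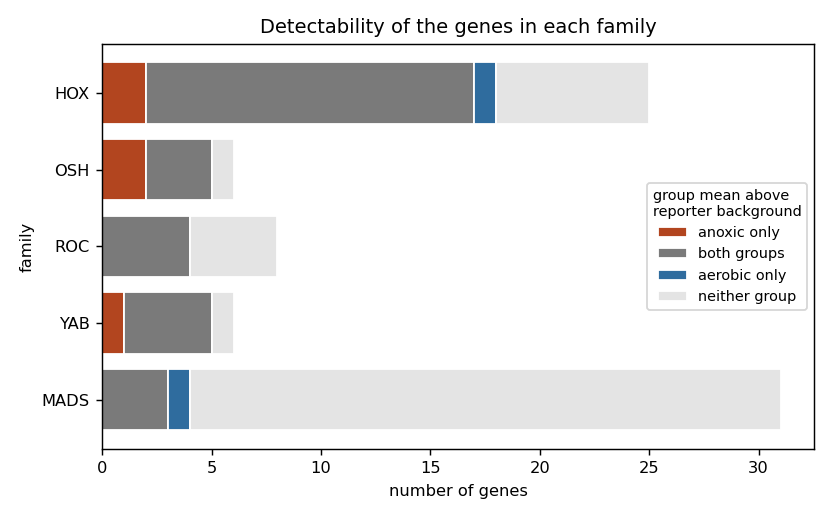
Number of genes per family (horizontal axis) whose group mean on the log2(intensity + 1) scale was above the reporter background of 4.05, split into anoxic only, both groups, aerobic only and neither group. The MADS bar is mostly in the class above background in neither group (27 of 31), while 15 of 25 HOX genes were above it in both.

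The comparison of anoxic with aerobic coleoptiles used limma on the 18826 probe sets whose mean level reached 4. Calls required an adjusted p under 0.05 and a log2 change of 1 or more, and 32.1% of these probe sets met both. Of the 76 genes, 35 passed that filter. In anoxia 4 rose (YAB5, HOX12, OSH1 and YAB4) and 10 fell (HOX1, MADS27, Hox22, HOX15, YAB6, Hox16, Roc6, MADS22, Hox21 and HOX4), while 21 were tested and not called. Called genes were 18.4% of all 76 (5.26% higher and 13.2% lower), against 23.3% of all named genes on the array (10.9% and 12.4%). Of the 12291 named genes tested, 33.9% were called, 15.9% higher and 18.0% lower. Like for like with these shares are 4 higher and 10 lower of the 35 genes tested here. The 18.4% is taken over all 76 genes, including those too dim to be tested. The median log2 difference was 0.01 over the 76 genes and 0.01 over all named genes. In whole coleoptiles, fewer cells of a type and less RNA per cell cannot be told apart. With any 1 array left out, 1 group rested on a single array. Fewer calls were then made, both among these genes and over all probe sets. The calls of HOX1, Hox16, Hox22 and YAB5 held with any 1 array left out. With no filter on level, only Hox16 and Hox22 were called (adjusted p = 0.0329 and 0.0416 by limma). In that fit 0 genes were called higher by limma, where 7 had an unadjusted p under 0.05, against 2.73% higher and 3.93% lower of all named genes. Without regard to size, both anoxic arrays lay above both aerobic arrays for 30 of the 76 genes and below them for 23, against 42.1% and 29.8% of all named genes. Most of the 30 were below background in both groups, many with differences as small as that of MADS1 (0.01), so these counts do not show more rises than falls.

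**Figure D2:**
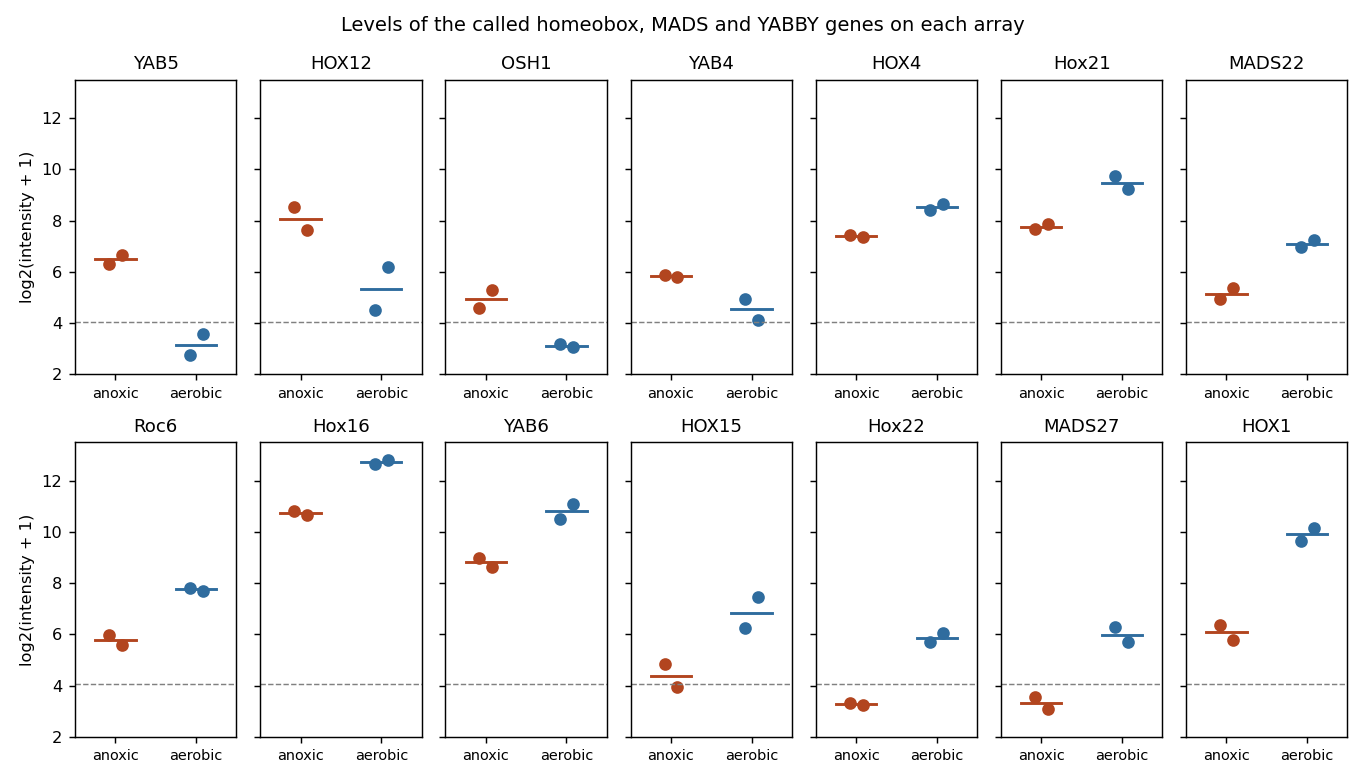
Level of each of the 14 called genes, as log2(intensity + 1) on the vertical axis, with 1 point per array, a bar at the group mean and the reporter background of 4.05 as a dashed line. In every panel the 2 anoxic arrays lie on one side of the 2 aerobic arrays, from YAB5, HOX12, OSH1 and YAB4, which are higher in anoxia, to HOX1, which is lower in anoxia.

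Of 12 HD-Zip I genes 10 were tested: Hox22, Hox16, Hox21 and HOX4 fell without oxygen, HOX12 rose and 5 were not called. The median log2 difference over all 12 was -0.68, also with group means below background set to 4.05. HOX12 (LOC4331956), a factor known in rice to act on the gibberellin-inactivating gene EUI1 and on panicle exsertion, read 8.53 and 7.62 on the anoxic arrays, against 4.49 and 6.18 on the aerobic arrays. The groups did not overlap, but the aerobic arrays lay far apart. HOX12 rose 6.69-fold, by 2.74 ± 0.67 log2 units (SE; limma, adjusted p = 0.0362). The rise was 1.89 without aerobic replicate 1 and 3.59 without aerobic replicate 2, and leaving out any single array ended the call (adjusted p from 0.0618 to 0.172).

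Hox22 (LOC4336542), known in rice from drought and abscisic acid responses, read 3.34 and 3.25 on the anoxic arrays, against 5.69 and 6.05 on the aerobic arrays. Both anoxic values lay below the reporter background, so Hox22 was at least 3.53-fold lower in anoxia (adjusted p = 0.0027 by limma). HOX24, which is known from the same responses, was at background in both groups (2.89 and 2.89 anoxic, against 2.89 and 2.86 aerobic). Hox16 (LOC4330610) read 10.84 and 10.66 in anoxic coleoptiles, against 12.67 and 12.81 in aerobic ones, and so remained far above background in both. It fell by 1.99 on the log2 scale with an SE of 0.18 (3.97-fold lower, adjusted p = 0.00343).

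Hox21 read 7.65 and 7.86 in anoxic coleoptiles, against 9.74 and 9.22 in aerobic ones (3.31-fold lower, adjusted p = 0.00992 by limma). Its probe set is of a type that can also match other transcripts, as are those used for HOX8, HOX15, HOX20, MADS14, MADS22 and YAB1 among the tested genes. HOX4, whose overexpression shortens rice plants, read 7.44 and 7.37 in anoxic coleoptiles, against 8.40 and 8.63 in aerobic ones (2.15-fold lower, adjusted p = 0.0131). The HOX4 call was lost without any 1 array (adjusted p from 0.0573 to 0.0787), and that of Hox21 without anoxic replicate 1 (0.0637), anoxic replicate 2 (0.0557) or aerobic replicate 1 (0.0636). HOX6 and HOX5 stood below the fold threshold, with differences of -0.99 ± 0.17 and -0.87 ± 0.19 log2 units (SE; adjusted p = 0.015 and 0.0272 by limma). Hox13 and HOX8 differed by -0.33 and -0.49 log2 units (adjusted p = 0.213 and 0.0829). HOX20 read 4.45 and 4.76 in anoxic coleoptiles, against 3.74 and 4.23 in aerobic ones, whose mean was below background (adjusted p = 0.124).

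HOX1 had the largest fall among the called genes that were above background in both groups. HOX1 (LOC4349388), an HD-Zip II factor known in rice from vascular development and the shoot's response to gravity, read 6.38 and 5.77 on the anoxic arrays, against 9.64 and 10.17 on the aerobic arrays. The groups lay far apart and both stayed above background. The difference was -3.83 ± 0.32 log2 units (SE), or 14.2-fold lower in anoxia (limma, adjusted p = 0.00306). HOX15, of the same class, read 4.83 and 3.96 in anoxic coleoptiles, against 6.24 and 7.47 in aerobic ones. Its fall of 2.46 on the log2 scale (SE 0.54, adjusted p = 0.027) was -3.07 without aerobic replicate 1 and -1.84 without aerobic replicate 2, and the call was lost without any 1 array (adjusted p from 0.0703 to 0.132).

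The other tested HD-Zip II genes were not called. HOX2 and Hox28 are neighbours in the gene table with no other protein-coding gene between them. HOX2 read 8.25 and 8.54 in anoxic coleoptiles, against 9.32 and 8.99 in aerobic ones, and Hox28 read 6.58 and 6.48, against 6.26 and 5.22. Their differences had opposite signs, -0.76 ± 0.22 and 0.79 ± 0.39 log2 units (SE; adjusted p = 0.0553 and 0.181 by limma). HOX7 differed by 0.52 (adjusted p = 0.101), while HOX17, Hox11 and Hox19 were at background in both groups.

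Among HD-Zip III genes, which set the upper leaf side and pattern vascular tissue, neither tested gene was called by its brightest probe set. Hox9 read 5.88 and 5.67 in anoxic coleoptiles, against 5.99 and 6.04 in aerobic ones (adjusted p = 0.338 by limma). HOX10 read 7.61 and 7.54 in anoxic coleoptiles, against 7.33 and 7.21 in aerobic ones, a difference of 0.30 ± 0.17 log2 units (SE; adjusted p = 0.222). A second HOX10 probe set gave another size of change: it read 6.06 and 5.76 on the anoxic arrays, against 3.60 and 3.60 on the aerobic arrays, and was called at least 3.63-fold higher (adjusted p = 0.00301). That call also held with any 1 array left out and with no filter on level. Averaged over both probe sets HOX10 was called. Of the other genes of this class, hox32 read 4.55 and 3.80 in anoxic coleoptiles, against 3.05 and 3.05 in aerobic ones, and was too dim on average to be tested.

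**Figure D3:**
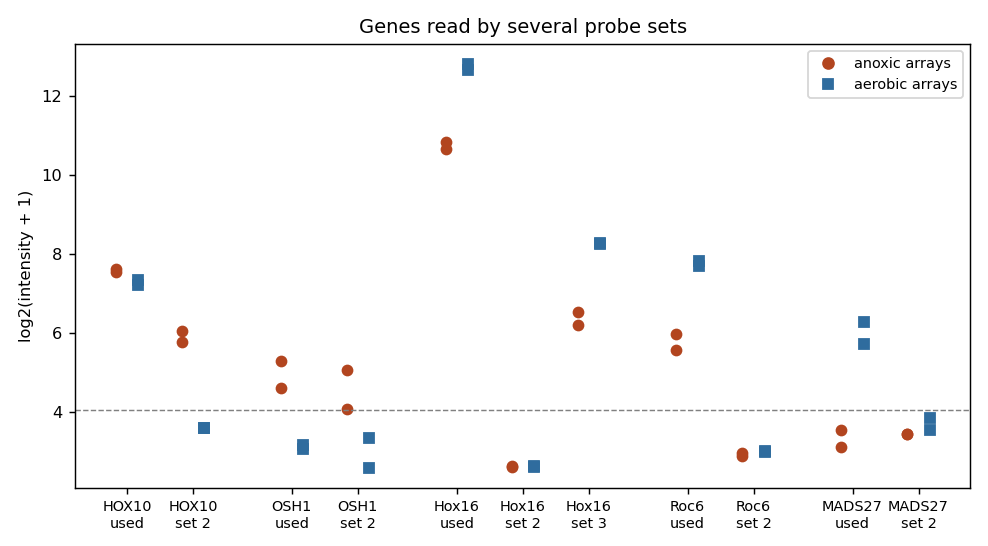
Levels of 5 genes that were read by several probe sets, as log2(intensity + 1) on the vertical axis, with 1 column per probe set, circles for anoxic arrays to the left of squares for aerobic arrays, and the reporter background of 4.05 as a dashed line. The second probe set of HOX10 read 3.60 on both aerobic arrays, below the line, while the one used read above it in both groups. Between the groups, 2 probe sets of Hox16 differed by -1.99 and -1.90, and its other probe set lay below the line in both.

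Several probe sets read 14 of the genes, and only for HOX10 and Hox16 did more than 1 pass the filter. The further tested probe set of Hox16 read 6.54 and 6.19 in anoxic coleoptiles, against 8.25 and 8.29 in aerobic ones, and was also called lower (adjusted p = 0.00486 by limma), a call lost without aerobic replicate 1 (0.0589) or 2 (0.0592). The second probe sets of Roc6 and MADS27 lay at background in both groups.

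Of the HD-Zip IV genes, which act in the outermost cell layer, 1 of 8 fell and 0 rose, with 1 higher at an unadjusted p under 0.05 by limma. Roc6 (LOC4347635) read 5.97 and 5.57 in anoxic coleoptiles, against 7.82 and 7.69 in aerobic ones. It was 3.94-fold lower in anoxia (adjusted p = 0.00523), a call lost without aerobic replicate 1 (0.0644) or 2 (0.0593). ROC1, a marker of the forming epidermis in rice embryos, read 7.22 and 6.94 in anoxic coleoptiles, against 6.08 and 6.23 in aerobic ones. Its difference of 0.93 ± 0.19 log2 units (SE) lay under the fold threshold (adjusted p = 0.0244). For Roc5, known from leaf rolling and bulliform cells, and Roc2 the arrays of the groups overlapped, with differences of -0.07 ± 0.22 and 0.08 ± 0.19 (SE; adjusted p = 0.816 and 0.77). Roc3, Roc4, Roc7 and Roc8 were at background.

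**Figure D4:**
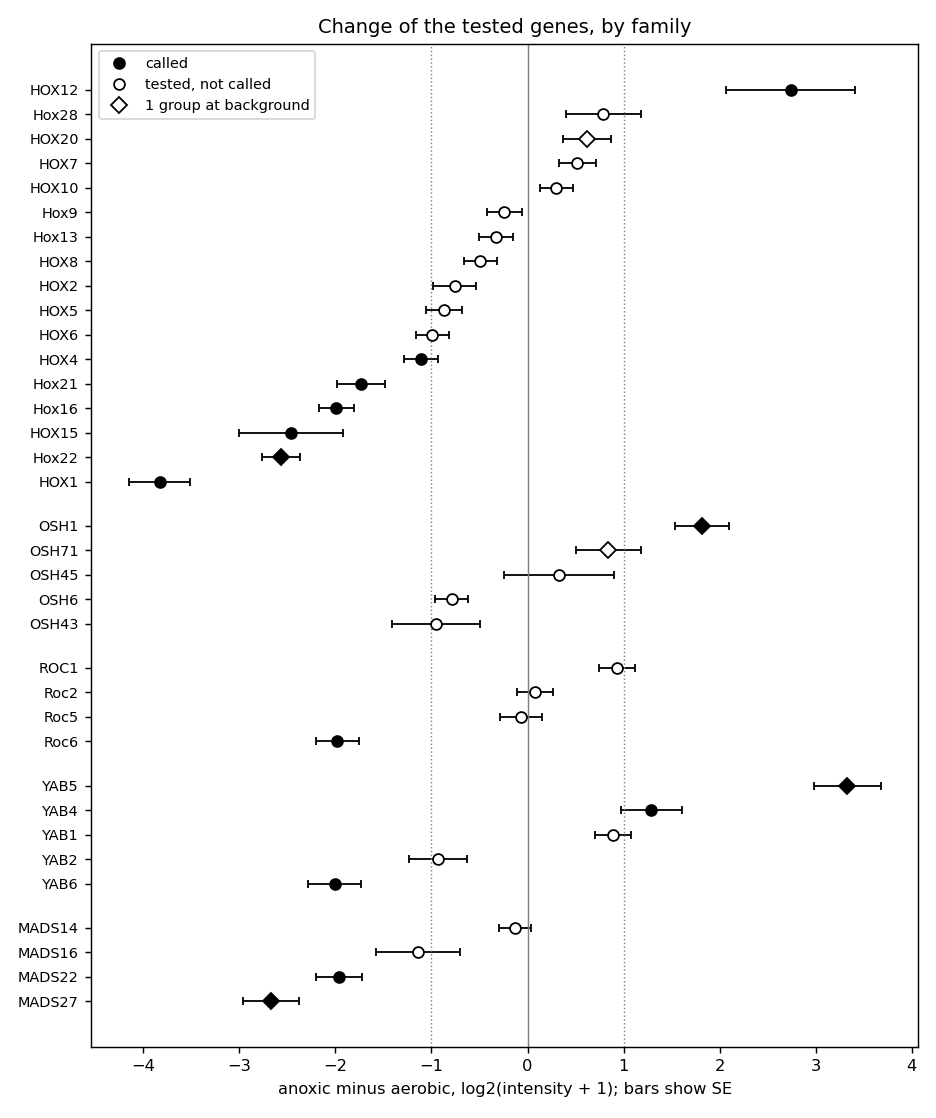
Difference between anoxic and aerobic coleoptiles on the log2(intensity + 1) scale (horizontal axis, bars show SE) for the 35 tested genes, ordered by size within HOX, OSH, ROC, YAB and MADS, with filled points for called genes and dotted lines at a change of 1. Diamonds mark genes with 1 group at or below the reporter background, whose plotted difference is no measured size. Among the circles, HOX12 (2.74) lies farthest to the right and HOX1 (-3.83) farthest to the left, and 21 open points were not called.

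Of the 6 KNOX genes 5 were tested, and OSH1 was the 1 gene called. OSH1 (LOC4333973), which in rice marks and maintains the shoot apical meristem, read 4.60 and 5.28 on the anoxic arrays, against 3.16 and 3.06 on the aerobic arrays. Both aerobic values were at background, and OSH1 was at least 1.85-fold higher in anoxia (adjusted p = 0.0115 by limma). Its mean of 4.03 over all arrays passed the filter of 4 only through the anoxic arrays. With no filter on level its adjusted p was 0.133 by limma. The call was lost without aerobic replicate 1 (0.0952) or 2 (0.101). A second probe set, too dim on average to be tested, read 4.07 and 5.06 in anoxic coleoptiles, against 3.33 and 2.59 in aerobic ones.

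OSH71 was also above background only in anoxia, with 4.27 and 5.16 on the anoxic arrays, against 3.82 and 3.92 on the aerobic arrays (adjusted p = 0.121), and was called higher without anoxic replicate 1 (0.0418). OSH6 read 5.53 and 5.51 in anoxic coleoptiles, against 6.37 and 6.26 in aerobic ones, a difference of -0.79 ± 0.17 (SE; adjusted p = 0.0241 by limma) that stayed under the fold threshold. OSH43 differed by -0.95 ± 0.46 (adjusted p = 0.176), and was called lower (0.0475) without anoxic replicate 2, where the remaining anoxic array (3.71) was below background. For OSH45 the spread between the aerobic arrays, 5.91 and 7.50, was wider than the difference from the anoxic arrays, 7.16 and 6.91 (adjusted p = 0.674). By limma 0 KNOX genes fell past both thresholds, with 1 lower at an unadjusted p under 0.05, and OSH3 was at background.

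Of the 6 YABBY genes 5 were tested, YAB5 and YAB4 rose and YAB6 fell. YAB5 (LOC4336518), known in rice as TONGARI-BOUSHI1 for its part in spikelet development, read 6.29 and 6.67 on the anoxic arrays, against 2.74 and 3.57 on the aerobic arrays. It was at background in aerobic coleoptiles and at least 5.40-fold higher in anoxic ones (limma, adjusted p = 0.00492). YAB4, which acts in vascular development in rice, read 5.88 and 5.78 in anoxic coleoptiles, against 4.95 and 4.13 in aerobic ones. It rose 2.44-fold (adjusted p = 0.0381), a call lost without anoxic replicate 1 (0.158), anoxic replicate 2 (0.14) or aerobic replicate 2 (0.0938).

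YAB6 moved the other way. It read 8.99 and 8.63 in anoxic coleoptiles, against 10.52 and 11.11 in aerobic ones, and was 4.03-fold lower (adjusted p = 0.00934 by limma), a call that ended when aerobic replicate 1 (0.0507) or 2 (0.0651) or anoxic replicate 2 (0.062) was left out. YAB1, linked in rice to feedback on gibberellin synthesis, read 10.15 and 10.34 in anoxic coleoptiles, against 9.26 and 9.46 in aerobic ones, a difference of 0.89 ± 0.19 log2 units (SE; adjusted p = 0.0242) under the fold threshold. YAB2 differed by -0.93 ± 0.30 (adjusted p = 0.069), and YAB7 was at background.

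Of the 31 MADS genes 4 were tested, 2 fell and 0 rose, with 0 higher also at an unadjusted p under 0.05 by limma. MADS27 (LOC4329771), of the ANR1 type and known in rice from the nitrate response of roots, read 3.54 and 3.10 on the anoxic arrays, against 6.28 and 5.71 on the aerobic arrays. Both anoxic values were at background, and MADS27 was at least 3.84-fold lower in anoxia (adjusted p = 0.00528), a call lost without aerobic replicate 1 (0.0551). MADS22, of the SVP type, which in rice damps brassinosteroid responses and guards meristem identity, read 4.92 and 5.36 in anoxic coleoptiles, against 6.95 and 7.24 in aerobic ones. It was 3.88-fold lower (adjusted p = 0.00682), a call lost without aerobic replicate 1 (0.062) or 2 (0.0699).

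The other tested MADS genes were not called. MADS16, a B-class gene that specifies lodicules and stamens, read 4.70 and 5.05 in anoxic coleoptiles, against 5.44 and 6.58 in aerobic ones. The groups did not overlap, but the difference of -1.14 ± 0.44 log2 units (SE) did not pass (adjusted p = 0.108 by limma). MADS14, of the AP1/FUL type that acts in the switch to flowering, differed by -0.13 ± 0.17 (adjusted p = 0.564), and its other 3 probe sets were at background. MADS17 read 3.21 and 4.21 in anoxic coleoptiles, against 2.70 and 2.94 in aerobic ones, and was not tested. The remaining SVP-type genes mads47 and MADS55 and the flowering-time genes MADS50 and MADS56 were at background in both groups.

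**Figure D5:**
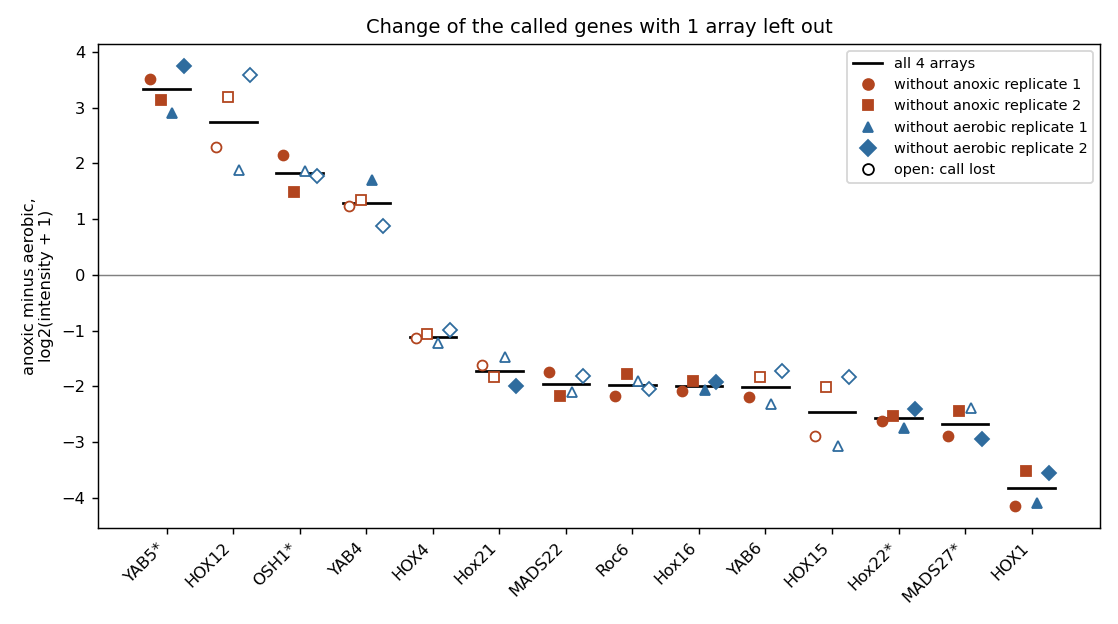
Difference between anoxic and aerobic coleoptiles on the log2(intensity + 1) scale (vertical axis) for the 14 called genes, with all 4 arrays (black bar) and with each array left out in turn (circle, square, triangle and diamond), open where the call was lost. All points kept their direction, and HOX12 spread most, between 1.89 and 3.59. Asterisks mark genes with 1 group at or below background, whose plotted difference is no measured size.

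Developmental genes of other families, mostly transcription factors, were taken by name as a wider list. Of 55 such genes on the array 24 were tested, 6 rose (10.9%) and 3 fell (5.45%), against 10.9% and 12.4% of all named genes. The median log2 difference over all 55 was 0.01. GRF6, a growth-regulating factor, read 7.84 and 7.88 in anoxic coleoptiles, against 3.95 and 4.64 in aerobic ones (adjusted p = 0.00278 by limma). OFP8, of the OVATE family, was at least 6.30-fold higher (0.00403). Its aerobic mean was 3.81, so it reached the filter of 4 only through the anoxic arrays. With no filter on level neither GRF6 nor OFP8 was called (adjusted p = 0.0589 and 0.0719 by limma). In that fit the list had 1 higher and 0 lower. SPL9 and PCF6 fell, by 1.37 on the log2 scale (0.0104) and at least 1.62-fold (0.0172). The calls of GRF6 and OFP8 held with any 1 array left out. PCF6 lost its call without any 1 array (adjusted p from 0.0608 to 0.097), and SPL9 without anoxic replicate 2 (0.057), aerobic replicate 1 (0.0624) or 2 (0.0749). The list had 2 higher and 0 lower without either aerobic array, 4 and 1 without anoxic replicate 1, and 3 and 0 without anoxic replicate 2.

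Genes that mark other tissues or states were read on the same arrays. Of 46 cell division genes, taken by name, 9 rose (19.6%) and 3 fell (6.52%), against 10.9% and 12.4% of all named genes. Their median log2 difference was 0.72, or 0.07 with group means below background set to 4.05. Their summed intensity was 5346 to 5706 on the anoxic arrays, against 3605 to 3622 on the aerobic arrays. The 9 higher genes and the sum include the inhibitor genes KRP6 and KRP5, so neither is a measure of division. MCM2, MCM3, MCM4, MCM5, MCM7 and MCM8 were below background in both groups, while MCM9 was above it in both. CYCB1-1 (LOC4327547) and the genes named CYCB2 had means above it only in anoxic coleoptiles (4.59, 4.29 and 4.19). CDKB2-1 was called higher, by 1.14 log2 units (adjusted p = 0.0292 by limma, 0.21 with no filter on level). CYCA2-1, CYCA3-2 and a further gene named CycB1-1 were below background in both groups. In that list KRP6, a kinase inhibitor gene, was at least 29.9-fold higher. CYCD4-1 differed by 2.61, KRP1 by -1.85 and CDKF-3 by -1.12 log2 units. With no filter on level KRP6, CYCD4-1, KRP1 and CDKF-3 were not called (adjusted p = 0.056, 0.0792, 0.0686 and 0.228 by limma). In that fit the list had 1 higher and 0 lower. Without aerobic replicate 1 or 2 the calls of CYCD4-1 (adjusted p = 0.0618 and 0.0646) and KRP1 (0.0674 and 0.0626) were lost, and that of CDKF-3 without any 1 array (0.0512 to 0.173). With anoxic replicate 1 left out the list had 5 higher and 1 lower, with anoxic replicate 2 left out 3 and 2, with aerobic replicate 1 left out 1 and 0, and with aerobic replicate 2 left out 2 and 0.

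Leaf and plastid genes summed to 394 to 491 on the anoxic arrays, against 604 to 615 on the aerobic arrays. The median log2 difference of these 13 genes was 0.01, and 5 were above background in each group. PORB was above it only in anoxic and PORA only in aerobic coleoptiles, while CAB2R, LHCP, RBCS1 and rca were below it in both. RBCS averaged 7.37 in anoxic and 7.32 in aerobic coleoptiles, and GLK2 6.76 and 7.45, neither of them called. PSAG alone was called (-1.40 ± 0.17 log2 units, SE, adjusted p = 0.00666 by limma), a call lost without either aerobic array. With the mean over all its probe sets PSAG differed by -0.70 and was not called. For 9 seed storage genes the sums were 200 to 207 on the anoxic and 431 to 463 on the aerobic arrays, with 7 of the 9 at background in both groups. The sums differed through GLB alone, which was lower by 1.68 log2 units (adjusted p = 0.00457 by limma), a call lost without aerobic replicate 1. GLUA-2, also above background, differed by -0.06 (adjusted p = 0.843). The part of these tissue signals in the changes of OSH1, the YABBY genes and the HOX genes was not tested.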

How the data were processed

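Per the submitters' processing notes, the authors made the deposited intensity values with GCRMA, a background correction and normalization for Affymetrix arrays. No source used here gives its version or settings. The values were linear, with array medians from 7.36 to 7.55, and no further scaling was applied. A pseudocount of 1 was added before log2, so fold changes of dim genes are understated. Of 57381 probe sets, 123 Affymetrix controls and 64 reporters were left out of the tests. Platform annotation, which can be old, gave 1 gene to 22436 probe sets and several to 95, which were left unnamed, and 34850 had none. Names came from the synonym field of the RefSeq table of assembly ASM3414082v1, matched without regard to case, because its symbol field held 0 of them.

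The 2-sided test was limma's (version 3.58.1, R 4.3.3, with 2 residual and 2.34 prior degrees of freedom), adjusted by Benjamini-Hochberg over the 18826 probe sets that reached a mean of 4. Exact permutation over 4 arrays cannot pass a usual threshold. A change whose dimmer group was not above 4.05 is given as a bound, the brighter mean against 4.05, or as levels only, but enters medians as fitted. Called genes of this kind in the families (OSH1, YAB5, Hox22 and MADS27) reached the mean of 4 only through their brighter group. So did OFP8, PCF6 and KRP6 among the genes named from the wider lists. The number of arrays limits the precision.

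The genes and lists were chosen with earlier results of these data known. HOX12 and HOX1, all called genes and the brightest genes of each family among those not called were to be named, and from wider lists at most 2 rises and 2 falls. Some genes whose other names show a different function, or that share a name, were removed from the wider lists after their counts had been seen once. Others that share a name, such as those named CYCB2, were kept. Before the removal the counts of genes higher and lower were 6 and 3 of 59 for other developmental genes and 9 and 4 of 51 for cell division. They were 0 and 2 of 15 for leaf and plastid, and 0 and 2 of 10 for seed storage. HD-Zip classes and MADS types were assigned from general knowledge. Some genes named at background were chosen after their values were seen. Replicate arrays correlated with r = 0.968 (anoxic) and 0.973 (aerobic) across tested probe sets, against 0.687 to 0.698 between groups. Alternatives covered the pseudocount, filter, scaling, floor, replicate block, variance model, probe set choice and leaving out each array. Promoter and protein sequences were not used here, so a planned motif search was not run.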

Additional observations from a re-analysis of the deposited data

How the results depend on the processing

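No called gene of these families changed direction under any alternative run. With no filter on level limma called 738 probe sets higher and 971 lower, with 0 and 2 of the genes described here. With a mean of at least 6 it called 1934 and 1895 probe sets, and 1 gene higher, since fewer genes were tested. A pseudocount of 16 left 2 genes higher, with the calls of OSH1 and YAB4 lost. Leaving out 1 array gave 692 to 2092 probe sets higher and 1186 to 2262 lower, with 1 to 3 genes higher and 3 to 7 lower. The labels do not say that the replicate numbers pair, so they were not taken as pairs. Deviations of same-numbered arrays correlated with r = -0.142 over tested probe sets. With 2 arrays per group this cannot decide whether the arrays pair. With the replicate block 3 genes were higher and 9 lower (2761 and 2795 probe sets), and HOX12 and HOX15 lost their calls (adjusted p = 0.0601 and 0.0514). The crossed replicate block, added after seeing the data, gave 4 and 10 (3243 and 3224 probe sets). Quantile normalization, median centring, a floor of 5, no pseudocount and a trended, robust variance model gave 4 and 10. So did the mean over all probe sets of a gene, where HOX10 entered the calls and OSH1 was too dim to be tested. The number of genes above background stayed between 31 and 38 in anoxic and 29 and 35 in aerobic coleoptiles. Values near the reporter background limit what could be detected.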
